A study of Rattus norvegicus with 57 samples.

Results

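Has2, Serpina7, Krt14, Synj2 and Elapor1 are 5 genes, of 10725 tested, that were chosen by their measured liver signals on day 24, which differed between rats given 80 mg/kg of methapyrilene and control rats, after dosing had ended. Methapyrilene is an antihistamine that injures the liver of rats. The question put to each gene was whether its difference was already there while the drug was being given. Male Han Wistar rats of the strain Crl:WI(Han), 8 to 10 weeks old, were gavaged once a day with 80 or 30 mg/kg methapyrilene in carboxymethylcellulose, and controls (0 mg/kg) had that vehicle alone. Livers were taken on day 4, day 8 and day 15 of dosing, and on day 24, when 14 days of dosing had been followed by 10 days without the drug. Each of the 57 arrays (Affymetrix Rat Genome 230 2.0) held RNA from liver homogenate of 1 animal, with 5 arrays in 9 of the 12 groups of dose and day and 4 arrays in the other 3 (80 mg/kg day 4, 30 mg/kg day 24 and control day 24). The design states 6 animals a group, and different animals were used on each day.

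The 5 genes belong to no common pathway. Serpina7 encodes thyroxine-binding globulin, a serpin without protease activity that liver secretes to carry thyroid hormone in blood. In rats its liver expression is known to be high in young animals and low in adults. Has2 encodes a membrane enzyme that makes hyaluronan, the long sugar chain of the extracellular matrix, which CD44 binds at the cell surface. Krt14 encodes the acidic keratin of basal cells in stratified epithelia and is no typical gene of hepatocytes. Synj2 encodes synaptojanin 2, a phosphatase that takes the 5-phosphate off membrane inositol lipids in vesicle traffic. Elapor1 encodes a transmembrane protein of endosomes and lysosomes, known from human cells as a regulator of autophagy and first described there as estrogen-induced.

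Of the 5 genes, 3 had an entry in the RefSeq promoter table of build GRCr8. The 250 bases before the start are shown for Serpina7 and Elapor1, the genes that passed the test during dosing in their day 24 direction, so that the letters next to both starts can be compared. Capitals mark GTTAAT, the letters that liver factor HNF1 sites often hold on one side, which lay 38 to 33 bases before the Serpina7 start. That start, the one in the promoter table, lies inside the Serpina7 gene span given below, and not at its end. The Elapor1 start is at the end of its gene span.

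Serpina7 chrX:107457682-107457931, minus strand: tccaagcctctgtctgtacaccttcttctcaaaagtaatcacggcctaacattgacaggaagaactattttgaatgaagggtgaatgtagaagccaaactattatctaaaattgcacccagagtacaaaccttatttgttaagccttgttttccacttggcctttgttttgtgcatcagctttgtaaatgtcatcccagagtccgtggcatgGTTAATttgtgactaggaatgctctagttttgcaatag
Elapor1 chr2:198856498-198856747, minus strand: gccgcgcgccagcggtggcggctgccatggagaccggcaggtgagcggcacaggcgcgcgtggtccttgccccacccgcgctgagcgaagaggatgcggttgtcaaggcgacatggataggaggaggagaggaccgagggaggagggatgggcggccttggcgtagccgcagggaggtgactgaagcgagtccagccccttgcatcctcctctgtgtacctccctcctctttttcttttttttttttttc

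Both strands were searched for 5 motifs, which do not overlap in these windows. TATAAA, the core promoter box, is found in 12.9% of the 33469 windows of this length in the table. CCAAT, bound by NF-Y, is found in 34.0% of them, and GTTAAT in 6.45%. TGACNNNGC, the core of the antioxidant response element, is found in 10.1%. TGATGNAA, a stress response element of ATF4, is found in 3.4%. None of the 5 was found in the Elapor1 window, nor in that of Synj2, which is not shown.

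Each gene was measured by 1 probe set, and all 5 passed the filter on low values. In GRCr8 they lie at chrX:107452044-107510958 (Serpina7), chr2:198777323-198856497 (Elapor1), chr1:48923742-49027153 (Synj2), chr7:90002929-90028933 (Has2) and chr10:85638182-85642450 (Krt14). Signals are MAS5 intensities on a linear scale, the authors' normalized brightness of a probe set, and the median of all values was 17.09. Serpina7 was above that median on 57 of 57 arrays and Elapor1 on 48. Has2 was above it on 11 arrays, Synj2 on 6 (all of rats given 80 mg/kg) and Krt14 on 5. Most signals of these 3 genes were thus in the lower part of the array's range, and Has2 and Synj2 passed the filter through arrays of dosed rats. Krt14 passed it only with the help of day 24 arrays of dosed rats (18.43 at 30 mg/kg and 17.24 at 80 mg/kg), groups in which it was high.

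The values that chose the genes are those of day 24, and they are given as a description with no test. The log2 differences at 80 mg/kg against control were 2.34 for Has2, 2.27 for Serpina7, 2.25 for Krt14, -1.99 for Synj2 and -1.38 for Elapor1. By size they ranked 9, 11, 12, 20 and 82 of 10725 genes. Adding 3.31 to each signal before the log2 (the 20th percentile of all values) made them 1.46 for Has2, 2.18 for Serpina7, 1.32 for Krt14, -0.90 for Synj2 and -1.31 for Elapor1. The differences of the 3 dim genes thus moved by more than 1.5 times, and those of Serpina7 and Elapor1 by less. The groups of 80 mg/kg and control did not overlap on day 24 for any of the 5, which held for 11.9% of all genes. In that comparison 10.2% of all genes passed the test.

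**Figure D1:**
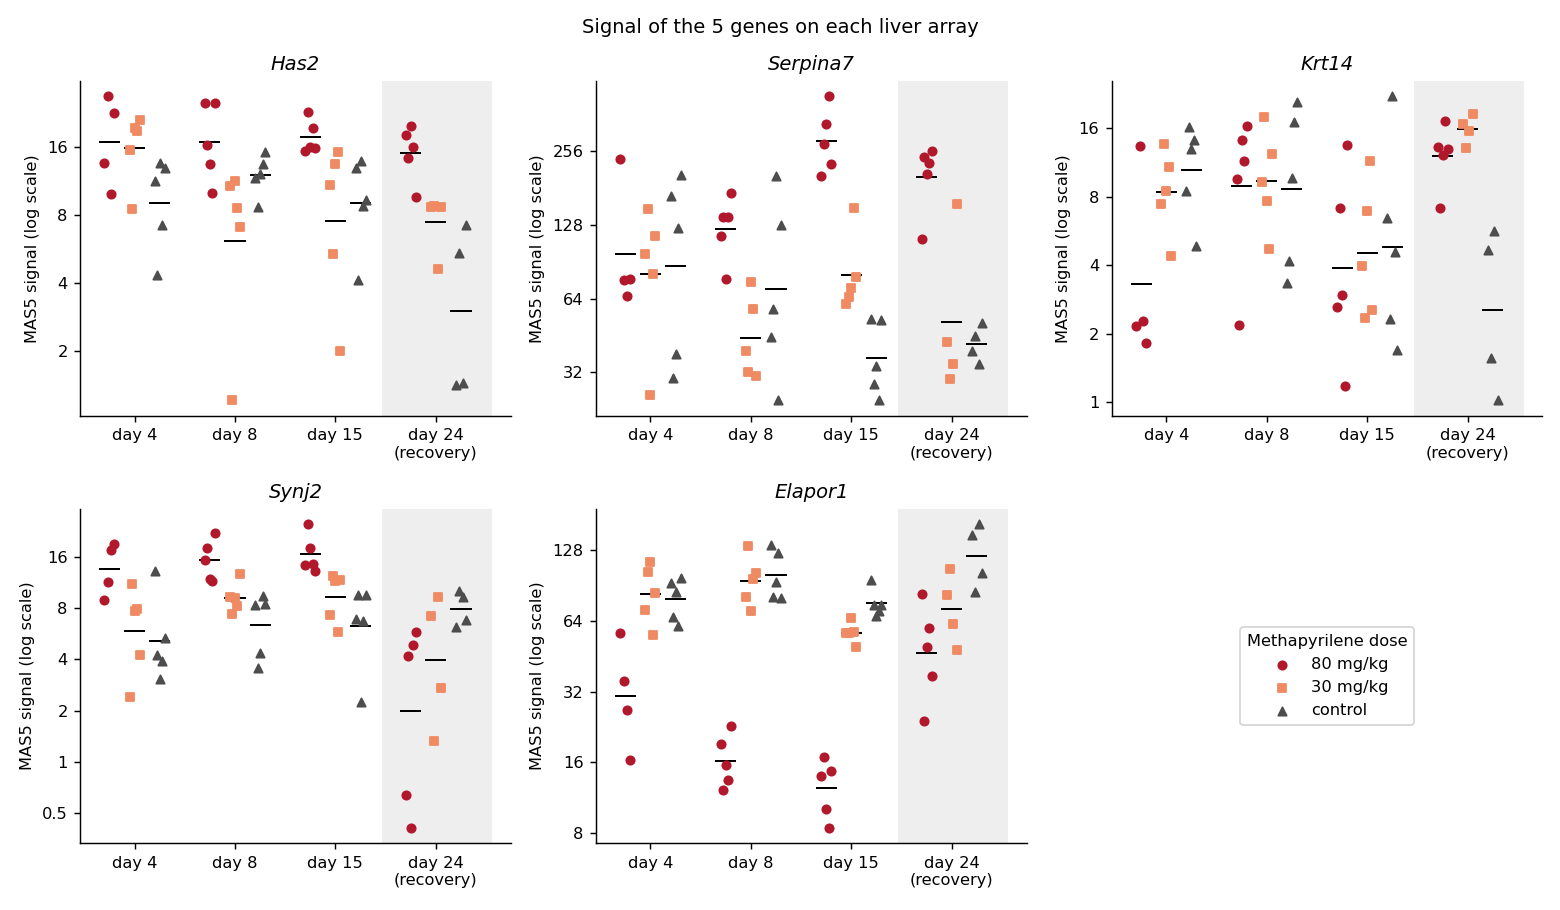
MAS5 signal (log scale) of the 5 genes on each of 57 arrays, by day and dose, with 1 point an array and a line at the geometric mean of each group. Day 24, shaded, followed 10 days of recovery. Serpina7 at 80 mg/kg is above all controls on days 15 and 24, Elapor1 at 80 mg/kg is below its controls on every day, and Synj2 at 80 mg/kg is high on day 15 and low on day 24.

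Tests were made on days 4, 8 and 15, whose animals played no part in the choice. Under limma's moderated test, with Benjamini-Hochberg adjustment over 10725 genes and a threshold of 0.05, 1 of 5 genes passed at 80 mg/kg against control on day 4, where 27.5% of all genes passed. On day 8, 2 of 5 passed, beside 50.8% of all genes, and on day 15, 3 of 5, beside 59.2%, both counts with Synj2. These shares are near the background of each day. Elapor1 passed on all 3 days in its day 24 direction, and Serpina7 on day 15 in its day 24 direction. Synj2 was called on days 8 and 15 in the direction opposite to day 24, but it had entered the test only through arrays of the 80 mg/kg group then called higher, so its calls are a description. Has2 and Krt14 passed on none of the dosing days. Read by overlap of the groups, 1 of 5 genes stood apart from control at 80 mg/kg on day 4, 2 on day 8 and 4 on day 15, beside 21.2%, 34% and 44.5% of all genes. The day 8 count includes Synj2, and the day 15 count includes Synj2 and Has2. Has2 too had entered the test only with the help of 80 mg/kg arrays, so these 2 counts are a description. A day 24 difference that continued one measured during dosing was thus found for Serpina7 and Elapor1, and not for the other 3 genes by this test.

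Serpina7 was higher in rats given 80 mg/kg on day 15 than in controls, by 7.73-fold. On day 4 its signals were 239, 76.1, 65.5 and 76.7 at 80 mg/kg, against 168, 30.4, 38.1, 124 and 205 in controls. On day 8 they were 115, 138, 76.7, 138 and 173 at 80 mg/kg, against 44.4, 58.2, 202, 24.7 and 128 in controls. The groups overlapped on both days, and the controls ran from the lowest to among the highest signals. The log2 difference was 0.17 ± 0.50 (SE) on day 4, with an adjusted limma p of 0.842. It was 0.83 ± 0.47 on day 8, with an adjusted limma p of 0.144 and a 95% interval of -0.13 to 1.78. Without control replicate 3, the animal at 202, the day 8 difference was 1.21 with an adjusted limma p of 0.0334.

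By day 15 the Serpina7 signals were 203, 275, 331, 430.1 and 227 at 80 mg/kg, against 52.6, 28.5, 34.0, 24.5 and 52.3 in controls. Every rat given 80 mg/kg was above every control. The log2 difference was 2.95 ± 0.47 (SE) with an adjusted limma p of 4.86e-07. Over the alternative settings it ran from 2.22 to 2.98. The difference between the effects of day 15 and day 4 was 2.78 ± 0.69, with an adjusted limma p of 0.00214, in a comparison where 24.4% of all genes passed. Both groups differed between those days. The 80 mg/kg mean was 114 on day 4 and 293 on day 15, and the control mean was 113 and 38.4. On day 24 the signals were 112, 243, 207, 229.5 and 257 at 80 mg/kg, against 39.1, 44.8, 34.5 and 50.7 in controls, again without overlap. Against the mean of the 15 controls of days 4, 8 and 15, which ran from 24.5 to 205, the 80 mg/kg group of day 24 was higher by 1.74 on the log2 scale, and 4 of its 5 rats were above that range. As a bulk measurement of liver, the signal cannot tell more cells of a type from more RNA in each cell.

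At 30 mg/kg Serpina7 averaged 93.5 ± 45.5 on day 4, 46.9 ± 18.8 on day 8 and 85.0 ± 37.1 on day 15 (SD, n = 5 each). On day 15 the 5 signals at 30 mg/kg were 60.9, 65.0, 70.7, 150.3 and 78.1, and none overlapped the controls of that day. That log2 difference was 1.13 ± 0.47 and did not pass, with an adjusted limma p of 0.170. Of the 5 genes, none was free of overlap with control at 30 mg/kg on day 4 or 8 and 2 were on day 15 (Serpina7 and Elapor1), beside 2.84%, 2.61% and 6.55% of all genes. Rats given 80 mg/kg were above those given 30 mg/kg on day 8 (log2 difference 1.49 ± 0.47, adjusted limma p 0.00869) and on day 15 (1.82 ± 0.47, adjusted limma p 0.00102). The day 24 signals at 30 mg/kg were 42.5, 29.9, 34.4 and 156, so 1 of 4 animals stood high.

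The other measured clade A serpins, which include the main secreted protease inhibitors of liver, did not move with Serpina7. Of 11 measured, Serpina7 was the one that rose at 80 mg/kg on day 15, 9 fell and 1 did not pass, with a median log2 difference of -0.74 beside 0.16 over all genes. Serpina5, the protein C inhibitor, fell by 2.75 on the log2 scale (adjusted limma p 6.57e-09). Serpina4, kallistatin, fell by 2.29 (adjusted limma p 7.25e-21), and Serpina3n by 2.05 (adjusted limma p 5.25e-15). Serpina6, the corticosteroid carrier of blood, also fell, by 0.74. On day 24 none of the other 10 passed at 80 mg/kg as deposited. None was called lower with quantile normalization, and 6 were with a common median of the arrays.

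Of 20 measured genes of thyroid hormone transport and action, 4 rose at 80 mg/kg on day 15, Serpina7 among them, and 12 fell, with a median of -0.74, or 2 rose and 13 fell with a common median of the arrays. Gpd2, the mitochondrial glycerophosphate dehydrogenase, rose by 0.61 on the log2 scale, and the sulfotransferase Sult1b1 by 0.27, a call lost with a common median of the arrays (0.13, adjusted limma p 0.298). Thrsp, a thyroid hormone response gene of fat synthesis, fell by 2.43. The uptake carriers Slc10a1 and Slco1a4 fell by 1.99 and 1.78. Dio1, the deiodinase that activates thyroxine, fell by 1.67, and Ttr, the other thyroxine carrier, by 0.38. On day 24, 1 of the 20 was called higher, Serpina7 itself, and 2 lower, with log2 differences of -0.67 for Slco1a4 and -0.68 for the receptor Thra. With quantile normalization 2 were called higher and 2 lower, and with a common median 1 higher and 6 lower.

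The 3 genes whose log2 signals followed Serpina7 best over the 57 arrays were Prom1 (Pearson r 0.71), Igfbp2 (0.70) and Map2 (0.69), as a description over arrays that share groups. Markers of biliary and progenitor cells, a list that holds Prom1 and Krt19, were higher at 80 mg/kg earlier than Serpina7 was. Of 9 measured, 7 rose on day 4, 8 on day 8, 9 on day 15 and 4 on day 24, and Krt7 was under the median of all values on every array. With quantile normalization 3 rose on day 24, and with a common median 6 rose on day 4 and 3 on day 24. The summed signal of these markers at 80 mg/kg was 442 to 644 on day 4, 791 to 1041 on day 8, 1198 to 1802 on day 15 and 324 to 414 on day 24. In controls it was 207 to 338, 257 to 353, 257 to 349.6 and 129 to 211 on the same days. The Serpina7 mean at 80 mg/kg was 293 ± 90.9 on day 15 and 209.8 ± 57.6 on day 24 (SD, n = 5 each). Of 9 hepatocyte markers, 1 rose and 6 fell on day 15, or 3 fell with quantile normalization and 8 with a common median. The part of these cells in the Serpina7 result was not tested.

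**Figure D2:**
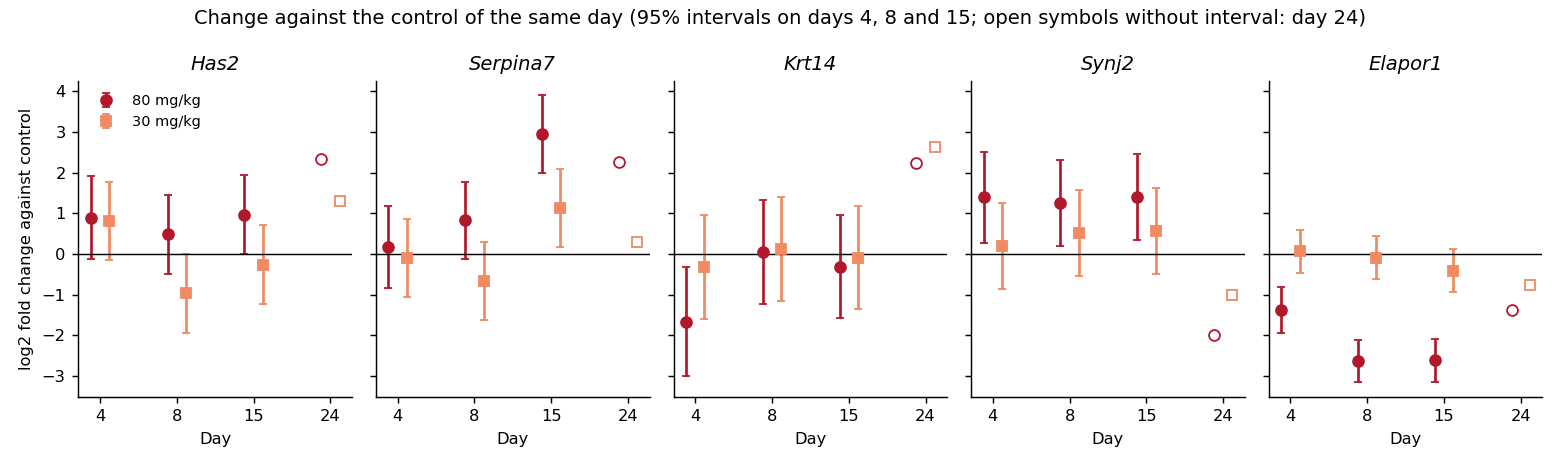
Log2 fold change against the control of the same day for the 5 genes at 80 mg/kg (circles) and 30 mg/kg (squares), on days 4, 8, 15 and 24. Bars are 95% intervals from limma on days 4, 8 and 15. Day 24, whose 80 mg/kg values chose the genes, has open symbols and no interval. Elapor1 at 80 mg/kg is below 0 from day 4 on, Serpina7 is at 2.95 on day 15, and Synj2 stands at 1.40 on day 15 and -1.99 on day 24.

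Elapor1 was lower at 80 mg/kg than in controls from the first time point on. On day 4 its signals were 56.7, 35.7, 26.8 and 16.5 at 80 mg/kg, against 93.1, 66.9, 85.1, 61.2 and 97.5 in controls. On day 8 they were 19.1, 12.3, 15.6, 13.5 and 22.8 at 80 mg/kg, against 135, 81.2, 93.5, 125 and 80.0 in controls. On day 15 they were 14.1, 16.8, 10.1, 8.40 and 14.7 at 80 mg/kg, against 96.0, 75.0, 67.2, 70.9 and 74.9 in controls. On none of these days did the groups overlap. The log2 differences were -1.37 ± 0.28 on day 4 (SE, adjusted limma p 0.000164), -2.63 ± 0.26 on day 8 (8.9e-12) and -2.62 ± 0.26 on day 15 (2.84e-12). The signal was thus 2.59-fold lower on day 4 and 6.14-fold lower on day 15.

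The Elapor1 effect of day 15 exceeded that of day 4 by a log2 difference of -1.25 ± 0.38, with an adjusted limma p of 0.0128. Without 80 mg/kg replicate 2 of day 4 it was -0.95 with an adjusted limma p of 0.0690. After recovery the signals were 83.3, 24.0, 49.4, 59.9 and 37.3 at 80 mg/kg, against 149, 84.8, 166 and 103 in controls. The 80 mg/kg mean was 50.8 ± 22.6 on day 24 and 12.8 ± 3.46 on day 15 (SD, n = 5 each), so the level on day 24 lay between that of day 15 and that of the day 24 controls. Set against the mean of the 15 controls of days 4, 8 and 15, which ran from 61.2 to 135, the 80 mg/kg group of day 24 differed by -0.86 on the log2 scale, with 4 of 5 rats below that range. Of the 4 day 24 controls, 2 lay above that range. The highest animal at 80 mg/kg, at 83.3, was just below the lowest control.

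Rats given 30 mg/kg had Elapor1 means of 85.9 ± 23.5 on day 4 and 96.8 ± 24.1 on day 8 (SD, n = 5 each), and overlapped controls. On day 15 the 5 signals at 30 mg/kg were 57.1, 57.1, 65.7, 57.5 and 49.5, all below the lowest control. That log2 difference was -0.41 ± 0.26 and did not pass, with an adjusted limma p of 0.410. Elapor1 at 80 mg/kg was below 30 mg/kg on all dosing days, with log2 differences of -1.44, -2.54 and -2.20 on days 4, 8 and 15 (adjusted limma p 0.000193, 5.56e-11 and 5.97e-10). On day 24 the 4 signals at 30 mg/kg were 82.7, 107, 62.4 and 48.0.

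Of 21 measured genes of endosomes, lysosomes and autophagy, 11 rose and 4 fell at 80 mg/kg on day 15, Elapor1 among those that fell, with a median of 0.24, or 7 rose and 5 fell with a common median of the arrays. Igf2r, which carries lysosomal enzymes to the endosome, rose by 1.47 on the log2 scale. Map1lc3a, a protein of the autophagosome membrane, rose by 1.19, and the sorting receptor Sort1 by 0.70. The lysosomal membrane protein Lamp2 fell by 0.60 and the autophagy kinase Ulk1 by 0.45. On day 24, Sort1 (0.66 ± 0.15, SE) and Uvrag (0.33 ± 0.08) rose, Becn1 (-0.50 ± 0.10) and Atg5 (-0.24 ± 0.07) fell, and Elapor1 was lower by choice. With quantile normalization 3 rose and 3 fell. With a common median of the arrays 1 rose, Sort1, and 10 fell.

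The genes most like Elapor1 over the 57 arrays were Kmo, kynurenine 3-monooxygenase (Pearson r 0.91), Fam210b (0.89) and Mcee, methylmalonyl-CoA epimerase (0.89). Over the 12 group means these values were 0.97 each, again as a description. Elapor1 and Serpina7 had a Pearson r of -0.61 over the 57 arrays, the farthest from 0 among the pairs of the 5 genes.

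Synj2 was higher at 80 mg/kg than in controls on days 8 and 15 and lower on day 24. On day 4 its signals were 8.87, 11.3, 17.4 and 18.9 at 80 mg/kg, against 13.1, 4.24, 3.06, 3.89 and 5.32 in controls. On day 8 they were 15.3, 17.8, 11.8, 11.5 and 22.0 at 80 mg/kg, against 8.33, 3.58, 4.38, 9.45 and 8.42 in controls. On day 15 they were 14.2, 24.8, 18.0, 14.4 and 13.2 at 80 mg/kg, against 6.88, 9.58, 2.26, 6.73 and 9.49 in controls. On days 8 and 15 no rat given 80 mg/kg overlapped a control, and on day 4 replicate 1 of the controls did. The log2 differences were 1.40 ± 0.56 on day 4 (SE, adjusted limma p 0.0562), 1.26 ± 0.53 on day 8 (0.0423) and 1.40 ± 0.53 on day 15 (0.0204).

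These Synj2 calls rest on the filter and on few arrays. With no filter on low values the adjusted limma p was 0.0504 on day 8 and 0.0240 on day 15. The day 4 difference passed without control replicate 1 (adjusted limma p 0.0207) or without 80 mg/kg replicate 2 (0.0442). The day 8 call was lost without control replicate 2 or 3, or without 80 mg/kg replicate 1, 2 or 5, each left out alone, with adjusted limma p of 0.0620 to 0.116. The day 15 call was lost without control replicate 3 (0.101) or without 80 mg/kg replicate 2 (0.0549). On day 24 the signals were 0.64, 4.17, 0.41, 4.88 and 5.77 at 80 mg/kg, against 6.18, 10.1, 9.26 and 6.79 in controls. Of the 5 rats, 3 lay inside the range of 2.26 to 13.1 of the 15 controls of days 4, 8 and 15 and 2 below it. All 5 were below all 4 controls of day 24, and 2 of the 5 were under 1, in a range where a log2 value moves far with small changes of signal. Over the 12 groups Synj2 averaged most on day 15 at 80 mg/kg, 16.9 ± 4.76, and least on day 24 at 80 mg/kg, 3.17 ± 2.49 (SD, n = 5 each).

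Synj2 in rats given 30 mg/kg averaged 6.65 ± 3.37 on day 4, 9.31 ± 1.98 on day 8, 9.72 ± 2.97 on day 15 (SD, n = 5 each) and 5.13 ± 3.74 on day 24 (n = 4), and overlapped controls on all 4 days. The comparison of 80 with 30 mg/kg did not pass on day 15, at a log2 difference of 0.82 ± 0.53 with an adjusted limma p of 0.185. With only the groups compared in the fit it passed (adjusted limma p 0.0263), as a description. Of 21 measured phosphoinositide phosphatases, 4 rose and 5 fell at 80 mg/kg on day 15, with a median of 0.04 that became -0.09 with a common median. Synj2 led those that rose. Inppl1, which also takes off a 5-phosphate, rose by 0.67 on the log2 scale and the 3-phosphatase Mtmr2 by 0.65. Mtmr7 fell by 2.97, Mtmr4 by 0.68 and Inpp4a by 0.60. Synj1, the closest relative of Synj2, had -0.20 ± 0.16 on day 24. Most like Synj2 over the 57 arrays were Tfb1m (Pearson r 0.71), Bnip1 (0.69) and Slc45a4 (0.69).

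Has2 was higher at 80 mg/kg by its means on every day, and did not pass on a dosing day. On day 4 its signals were 13.6, 26.9, 9.88 and 22.7 at 80 mg/kg, against 11.3, 4.31, 13.6, 7.20 and 12.9 in controls. On day 8 they were 25.1, 16.3, 13.4, 9.99 and 25.2 at 80 mg/kg, against 11.7, 8.67, 12.1, 13.5 and 15.3 in controls. On day 15 they were 15.4, 22.9, 16.0, 19.5 and 15.8 at 80 mg/kg, against 13.0, 4.11, 13.9, 8.76 and 9.35 in controls. The groups overlapped on days 4 and 8, and not on day 15. The log2 differences were 0.90 ± 0.51 on day 4, 0.49 ± 0.48 on day 8 and 0.97 ± 0.48 on day 15 (SE), with adjusted limma p of 0.197, 0.417 and 0.0810. Against rats given 30 mg/kg Has2 was called higher on day 8 (1.46 ± 0.48, adjusted limma p 0.0117) and on day 15 (1.24 ± 0.48, adjusted limma p 0.0270). Has2 had entered the test only with the help of 80 mg/kg arrays, so these calls are a description. The 30 mg/kg groups held signals of 1.2 on day 8 and 2.0 on day 15, and without those arrays the adjusted limma p became 0.118 and 0.178. The day 15 call against 30 mg/kg was also lost without 30 mg/kg replicate 2 (0.0650) or 80 mg/kg replicate 2 (0.0598), and with a common median of the arrays (0.0519). The day 8 call was also lost when only the groups compared were fitted (0.0543).

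On day 24 the Has2 signals were 18.2, 14.3, 19.9, 16.0 and 9.63 at 80 mg/kg, 8.69, 8.78, 4.62 and 8.67 at 30 mg/kg, and 1.41, 5.44, 1.44 and 7.22 in controls. The 80 mg/kg mean of 15.6 ± 3.96 on day 24 stood beside 17.9 ± 3.22 on day 15 (SD, n = 5 each). The control mean was 3.88 ± 2.92 on day 24 (n = 4) and 9.82 ± 3.90 on day 15 (n = 5). Set against the 15 controls of days 4, 8 and 15, which ran from 4.11 to 15.3, 3 of the 5 rats at 80 mg/kg were above and 2 inside. Of the 4 day 24 controls, 2 were below that range. On the log2 scale the 80 mg/kg group of day 24 was 0.60 above the mean of those 15 controls, and the day 24 controls differed from it by -1.74.

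Of 18 measured genes of hyaluronan synthesis, binding and breakdown, 3 rose and 8 fell at 80 mg/kg on day 15, with a median of -0.27. Hmmr, a hyaluronan receptor that also marks dividing cells, rose by 2.28 on the log2 scale (adjusted limma p 1.49e-06). The receptor Cd44 rose by 1.64 (adjusted limma p 4.09e-11) and Cemip, which takes part in hyaluronan breakdown, by 1.07 (0.00335). Itih2 and Itih1, heavy chains that liver secretes and that become bound to hyaluronan, fell by 0.86 and 0.74, and the proteoglycan Bcan by 0.70, a call lost without control replicate 3 (-0.53, adjusted limma p 0.0697). On day 24, 4 of the 18 were called higher and none lower, Has2 included by choice. The others were Hmmr (1.37 ± 0.41, SE), the hyaluronidase Hyal2 (0.45 ± 0.12) and the endothelial hyaluronan receptor Lyve1 (0.44 ± 0.12). With a common median of the arrays 2 were called higher, Has2 and Hmmr, and 5 lower, and the list's median was -0.18 in place of 0.07. With quantile normalization 3 were called higher, Has2, Hyal2 (0.37) and Lyve1 (0.47), and none lower, with a median of 0.08. Hmmr was not called in that setting.

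Stellate cells, mesothelial cells and fibroblasts are known makers of hyaluronan. Of 12 stellate cell and myofibroblast markers, 5 rose at 80 mg/kg on day 24, and 4 rose and 2 fell on day 15. With a common median of the arrays 1 rose on day 24, and 1 rose and 3 fell on day 15. With quantile normalization 1 rose on day 24, and 1 rose and 2 fell on day 15. Their summed signal on day 24 ran from 2329 to 3528 at 80 mg/kg, against 1432 to 2551 in controls. Of 5 mesothelial markers, 1 rose on day 24, with summed signals of 165 to 388 at 80 mg/kg, against 88.2 to 241 in controls. Endothelial markers rose in 4 of 7 and macrophage markers in 7 of 8 on day 24. With quantile normalization 4 and 6 rose, and with a common median 0 and 3. Both settings left 0 of 5 mesothelial markers called. The part of these cells in the Has2 values was not tested. Most like Has2 over the 57 arrays were Tm6sf1 (Pearson r 0.65), Lztfl1 (0.59) and Qpct (0.59).

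Krt14 did not pass on any dosing day, and its day 24 difference was as large at 30 mg/kg. On day 4 its signals were 2.16, 13.4, 2.28 and 1.82 at 80 mg/kg, against 8.53, 16.3, 13.0, 14.2 and 4.88 in controls. On day 8 they were 9.57, 2.19, 14.2, 11.5 and 16.4 at 80 mg/kg, against 3.35, 4.17, 9.69, 17.1 and 20.9 in controls. On day 15 they were 2.63, 7.12, 2.97, 1.18 and 13.5 at 80 mg/kg, against 6.43, 2.32, 22.1, 4.59 and 1.70 in controls. The groups overlapped on all 3 days, and within 1 group of rats the signals ran over more than the differences between groups. The log2 differences were -1.66 ± 0.67, 0.05 ± 0.63 and -0.31 ± 0.63 on days 4, 8 and 15 (SE), with adjusted limma p of 0.0593, 0.961 and 0.696. The 95% interval on day 15 ran from -1.58 to 0.97. The day 4 difference passed, as lower at 80 mg/kg, without 80 mg/kg replicate 3 (adjusted limma p 0.0114) or control replicate 5 (0.0377).

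On day 24 Krt14 signals were 13.2, 7.18, 12.2, 17.2 and 13.0 at 80 mg/kg, 16.8, 13.1, 15.6 and 18.4 at 30 mg/kg, and 4.69, 1.57, 5.65 and 1.02 in controls. Both doses were above all 4 controls, and they share those controls. The log2 difference at 30 mg/kg was 2.64, rank 4 of 10725 by size. At 30 mg/kg on day 24, Krt14 was the 1 of 5 genes whose groups did not overlap, beside 3.89% of all genes. Krt14 had entered the test only with the help of day 24 arrays of dosed rats, so its rank and this lack of overlap are a description. All 5 rats at 80 mg/kg on day 24 lay inside the range of 1.70 to 22.1 of the 15 controls of days 4, 8 and 15. Of the 4 day 24 controls, 2 lay below that range. On the log2 scale the 80 mg/kg group of day 24 differed from the mean of those controls by 0.68, and the day 24 controls by -1.57.

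Of 7 measured keratins, 4 rose at 80 mg/kg on day 15 and none fell, with a median of 1.02. Krt20 rose by 1.64 on the log2 scale (adjusted limma p 0.000704). Krt8 and Krt18, the keratin pair of hepatocytes, rose by 1.34 and 1.02, and the biliary keratin Krt19 by 1.21. Krt14 (-0.31), Krt10 (-0.71) and Krt17 (-0.77) did not pass. On day 24, 2 of the 7 were called higher, Krt14 by choice and Krt19, with 0.69 ± 0.22. With a common median of the arrays 1 was, Krt14. Of the basal epithelial markers, the defining Krt5, Krt15 and Col17a1 were under the median of all values on every array. On day 24, 1 of 4 measured markers of that list rose. With quantile normalization 0 rose, and with a common median 1 rose and 1 fell. The list's summed signal on day 24 ran from 542 to 744 at 80 mg/kg, against 584 to 681 in controls. Most like Krt14 over the 57 arrays were Tbx2 (Pearson r 0.49), Dach1 (0.49) and Irf2 (0.47).

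**Figure D3:**
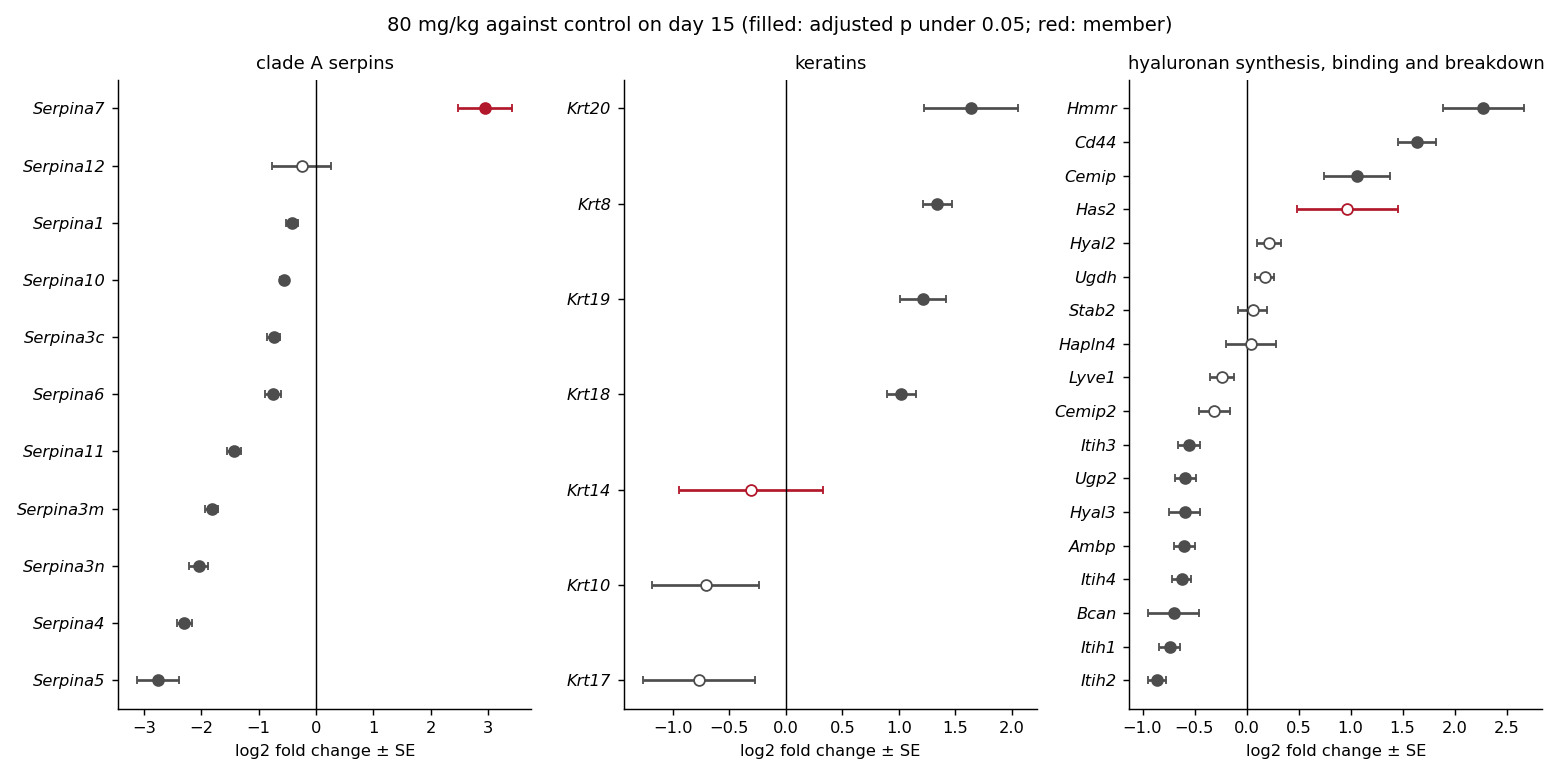
Log2 fold change ± SE at 80 mg/kg against control on day 15 for measured clade A serpins, keratins and hyaluronan genes, sorted by size, with filled symbols for an adjusted p under 0.05 and members of the 5 genes in red. Serpina7 stands at 2.95 above the other serpins, Krt14 and Has2 did not pass, and Krt20, Krt8, Krt19 and Krt18 rose.

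At 30 mg/kg none of the 5 genes passed against control on day 4, 8, 15 or 24, beside 0.783%, 0.233%, 4.6% and 0.0932% of all genes. At an unadjusted limma p under 0.05, Serpina7 on day 15 was the 1 that passed on a dosing day. The share of all genes at that unadjusted threshold was not worked out, so nothing is read from this count. The log2 differences of the dosing days lay between -0.97 (Has2, day 8) and 1.13 (Serpina7, day 15). The 30 mg/kg rats of day 24 share their 4 controls with the comparison that chose the genes. Their log2 differences were 1.32 for Has2, 0.29 for Serpina7, 2.64 for Krt14, -1.01 for Synj2 and -0.75 for Elapor1. Between 80 and 30 mg/kg, 1 of 5 genes passed on day 4, 3 on day 8 and 3 on day 15, beside 20.1%, 46.1% and 55.2% of all genes. The counts of days 8 and 15 include Has2, whose calls are a description.

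When the 12 groups were ordered by their mean signal, none of the 11 neighbouring pairs was separated without overlap for any of the 5 genes. The highest group was day 15 at 80 mg/kg for Serpina7 and Synj2, and day 4 at 80 mg/kg for Has2. For Elapor1 the lowest group was day 15 at 80 mg/kg. Krt14 averaged most in the day 24 group of 30 mg/kg.

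The 1097 genes that passed at 80 mg/kg on day 24 can be read in the same way, since animals of the dosing days are others. Of 767 higher genes, 404 (52.7%) had passed upward on day 15, 40 (5.22%) downward and 323 (42.1%) in neither direction. On day 4, 160 (20.9%) of them had passed upward, beside 18.3% of all genes. Of 330 lower genes, 142 (43%) had passed downward on day 15, 87 (26.4%) upward and 101 (30.6%) in neither direction. On day 8, 437 (57%) of the higher and 147 (44.5%) of the lower genes had passed in their day 24 direction. Over all genes 34.2% had passed upward and 16.6% downward on day 8. Leaving out 1 array gave 611 to 1277 genes on day 24. The split into higher and lower genes rests on the deposited scaling: 69.9% of the day 24 calls were higher as deposited, 59.7% with quantile normalization and 7.36% with a common median, which called 267 higher and 3359 lower genes. With a common median the median of all genes was -0.208 on day 24, in place of 0.0445. The share that had passed on day 15 in the same direction was 49.8% of the higher and 40.8% of the lower genes with a common median. Of all 10725 genes, 3099 passed upward and 2790 downward on day 15 in that setting. As deposited, passing upward on day 15, as Serpina7 did, held for 38.8% of all genes and passing downward, as Elapor1 did, for 20.5%. The Synj2 pattern was that of the 87 genes, and Has2 and Krt14 were among the 323.

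**Figure D4:**
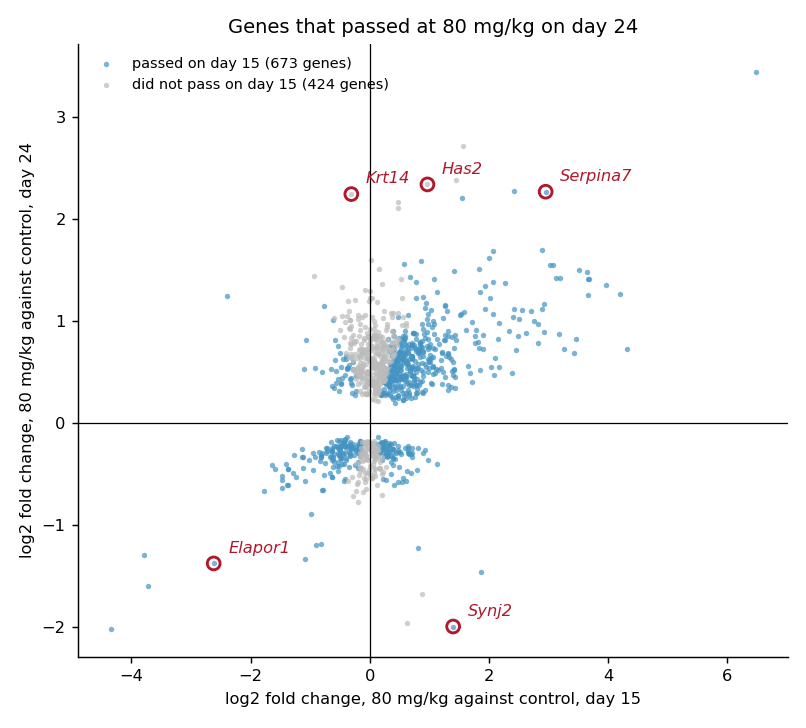
Log2 fold change at 80 mg/kg against control on day 15 (x axis) and on day 24 (y axis) for the 1097 genes that passed on day 24, in blue where the gene also passed on day 15 (673) and in grey where it did not (424). The 5 genes are ringed: Serpina7 and Elapor1 lie on the same side of 0 on both days, Synj2 on opposite sides, and Has2 and Krt14 are grey.

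The groups of day 24 differed in 2 measures of the arrays that bear on these values. The ratio of actin 3' to 5' probe sets, which is higher when RNA is shorter, was 5.84 to 6.76 at 80 mg/kg, 6.54 to 9.30 at 30 mg/kg and 6.04 to 9.76 in controls on day 24, and 3.77 to 6.37 on earlier days, so the 80 mg/kg arrays of day 24 overlapped earlier ones. The median signal of an array was 18.9 to 21.1 at 80 mg/kg on day 24, against 15.9 to 17.8 in controls. At 80 mg/kg on earlier days it ran from 16.8 to 19.5, and the controls of day 24 lay within the range of earlier controls. With all arrays brought to a common median, the day 24 differences were 2.09 for Has2, 2.02 for Serpina7, 1.99 for Krt14, -2.25 for Synj2 and -1.63 for Elapor1. With the actin ratio as a covariate they were 2.20, 2.29, 2.56, -2.03 and -1.36 in that order. The part of RNA quality in these differences was not tested beyond these settings.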

How the data were processed

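Per the labels, liver RNA was biotin labelled (GeneChip 3' IVT Express) and hybridised to 57 arrays, 1 a rat. The deposited values are MAS5 signals, an intensity on a linear scale, per the submitters' processing notes, and the MAS5 version is not given in the sources used here. Leaving out 2% at each end, every array had a mean of 99.992, the level to which the deposited intensities were scaled. Such scaling sets differences relative to the whole array. Precision is limited by how many arrays a group has.

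Of 31099 probe sets, 57 were array controls, 20832 had 1 gene symbol, 436 several and 9831 none, by the platform annotation, and 20758 matched RefSeq genes (GRCr8) by Entrez ID. Signals were log2 transformed with no offset. Probe sets over 17.09, the overall median, on 4 or more arrays were kept (18727 probe sets, 14341 with 1 symbol). The probe set of highest mean stood for each of 10725 genes. Means of 12 groups were fitted to all arrays with limma 3.58.1 (lmFit, eBayes with a trend) in R 4.3.3, two-sided, with Benjamini-Hochberg adjustment over all genes and a threshold of 0.05. Both doses were set against same-day controls, 80 with 30 mg/kg, and the 80 mg/kg effect of day 15 with that of day 4. Tables were made with pandas 2.3.3 and numpy 2.4.6, and plots with matplotlib 3.10.9. Simulated data had 50 genes changed at each size. The fit for 80 mg/kg on day 15 called 70% of genes changed 1.5-fold and 88% of those changed 2-fold. On day 4 it called 52% and 86% of them, and on day 8 it called 52% and 90%. These shares are over all the changed genes, and were not worked out for genes as variable as Has2, Krt14 and Synj2. Their SE on day 15 were 0.48, 0.63 and 0.53, and Has2, higher by 1.96-fold, did not pass. The shares thus do not tell how often a change in such genes would pass.

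The 5 genes, the gene lists and the cell markers were chosen with earlier results of these data known. Genes named beside the 5 are up to 3 that rose most and 3 that fell most on day 15 at 80 mg/kg in each list, the 3 genes most like each of the 5 by Pearson r, and the list genes given as day 24 values. Dio1, Ttr, Serpina6, Krt18, Krt10, Krt17 and Synj1 were added after their values were seen. Replicate numbers are shared by the groups, but same-numbered arrays did not deviate together (36 pairs, r from -0.0805 to 0.0647). Alternatives were no filter, a filter at the 60th percentile, quantile normalization, a common median, an offset of 3.31, array weights, no variance trend, probe sets averaged per gene, only the groups compared, the replicate block, the actin ratio as a covariate, each array left out, and, chosen after seeing the data, pooled controls of days 4, 8 and 15.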

Additional observations from a re-analysis of the deposited data

Results flagged for a closer look

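Among 60 groups of 4 or 5 arrays (5 genes in 12 groups), 8 had 1 array far from the rest by Dixon's gap ratio, where chance gives about 1 in 20, or 3. Serpina7 had a high array at 239 at 80 mg/kg on day 4 (replicate 2), a low one at 112 at 80 mg/kg on day 24 (replicate 1) and a high one at 150.3 at 30 mg/kg on day 15 (replicate 4). For Krt14 an array stood high at 13.4 at 80 mg/kg on day 4 (replicate 3), and another low at 2.19 at 80 mg/kg on day 8 (replicate 2). Has2 was low at 1.2 at 30 mg/kg on day 8 (replicate 2) and at 4.62 at 30 mg/kg on day 24 (replicate 3). Synj2 was low at 2.26 in control replicate 3 of day 15, the array without which its day 15 call was lost.

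The 80 mg/kg effect differed between day 15 and day 4 for Serpina7, by 2.78 on the log2 scale (adjusted limma p 0.00214), and for Elapor1, by -1.25 (adjusted limma p 0.0128). For Synj2 every rat given 80 mg/kg lay on one side of the control mean on dosing days and on the other on day 24. Its effect of day 24 less that of day 4, 8 and 15 was -3.39, -3.26 and -3.39, and this was not tested, since day 24 chose the genes. The Has2 effect at 30 mg/kg of day 24 less that of day 8 was 2.28, with every rat below the control mean on day 8 and above it on day 24, and this difference was not tested.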

How the results depend on the processing

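Elapor1 at 80 mg/kg on days 4, 8 and 15 and Serpina7 at 80 mg/kg on day 15 kept their direction and stayed past the threshold in every alternative run. The share of all calls at 80 mg/kg that were higher was 66.6%, 67.3% and 65.5% on days 4, 8 and 15 as deposited, and 37.1%, 37.2% and 52.6% with a common median. Causes of the changes below were not tested, beyond that leaving out arrays or fitting only the groups compared uses fewer arrays. The count of the 5 genes called at 80 mg/kg on day 4 was 1, beside 27.5% of all genes. It became 2 with quantile normalization, a common median and the actin covariate, where Krt14 passed as lower. It was also 2 with the offset, array weights and pooled controls, where Synj2 passed as higher. Both directions are opposite to day 24. Of all 10725 genes, 2952 were called on day 4 as deposited, 2827 with quantile normalization and 2539 with a common median. On day 8 the count of the 5 genes was 2, beside 50.8% of all genes. It became 1, Elapor1, with quantile normalization, a common median, no filter, the stricter filter and the actin covariate. For 80 against 30 mg/kg on day 4 it was 1, and 2 with the offset. At 30 mg/kg on day 15 it was 0, and 1 when only the groups compared were fitted.

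For single genes, Krt14 on day 4 passed, as lower at 80 mg/kg, with quantile normalization (adjusted limma p 0.0330), a common median (0.0431) and the actin covariate (0.0279). Has2 on day 15 passed, as higher at 80 mg/kg, with the offset (0.0334) and with only the groups compared (0.0201). Has2 had entered the test only with the help of 80 mg/kg arrays, so these passes are a description. Synj2 on day 4 passed, as higher at 80 mg/kg, with the offset (0.0122), array weights (0.0339) and pooled controls (0.0384). Synj2 on day 8 did not pass with quantile normalization (0.0991), a common median (0.107), no filter (0.0504) or the actin covariate (0.0624). Has2 against 30 mg/kg did not pass with a common median on day 15 (0.0519) or with only the groups compared on day 8 (0.0543). Synj2 at 80 against 30 mg/kg passed, as higher, with only the groups compared on day 8 (0.0377) and day 15 (0.0263). On day 4 that comparison passed with the offset (0.0392). All Synj2 passes as higher at 80 mg/kg are a description, since it entered the test only through arrays of that dose. Serpina7 on day 8 passed with pooled controls (0.0202).

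Over all genes, the count called at 80 mg/kg on day 24 was 1097, and 3626 with a common median. At 30 mg/kg it was 84 on day 4, and 39 with a common median, 2 with only the groups compared and 52 with the actin covariate. On day 8 it was 25, and 14 with a common median, 70 with array weights and 8 with only the groups compared. On day 15 it was 493, and 300 with a common median and 1002 with array weights. On day 24 it was 10, and 18 with quantile normalization, 5 with a common median, 2 with no filter, 3 with array weights and 0 with only the groups compared.

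Log2 differences of genes that did not pass changed sign as follows. Krt14 at 80 mg/kg on day 8 was -0.14 with quantile normalization and -0.18 with a common median. Has2 for 80 against 30 mg/kg on day 4 was -0.0327 and -0.0438 in the same settings. The difference of day 15 and day 4 at 80 mg/kg was, for Synj2, -0.0028 with a common median, -0.10 with array weights and -0.0713 with the actin covariate, and, for Has2, -0.0065 with array weights and -0.28 with the actin covariate. Serpina7 at 30 mg/kg on day 4 was 0.0843 with array weights. With the actin covariate Krt14 on day 15 was 0.17 at 80 mg/kg, 0.16 at 30 mg/kg and 0.0129 for 80 against 30 mg/kg. With the replicate number as a block, 54 of 55 results of the 5 genes kept their direction and side of the threshold, and Has2 for day 15 less day 4 became -0.0035.

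Leaving out each array in turn gave 1 to 2 of the 5 genes called at 80 mg/kg on day 4, 1 to 2 on day 8 and 2 to 3 on day 15. For 80 against 30 mg/kg on day 4 it gave 1 to 2, and for day 15 less day 4 it gave 1 to 2. Over all genes it gave 19 to 87 at 30 mg/kg on day 4, 12 to 43 on day 8, 277 to 616 on day 15 and 0 to 31 on day 24, and 611 to 1277 at 80 mg/kg on day 24. The log2 differences that changed sign in this way had not passed. Elapor1 ran from -0.0469 to 0.21 for 30 mg/kg on day 4 and from -0.21 to 0.0191 for 30 mg/kg on day 8. Has2 ran from -0.55 to 0.21 for 30 mg/kg on day 15, from -0.14 to 0.34 for 80 against 30 mg/kg on day 4 and from -0.22 to 0.34 for day 15 less day 4. Krt14 ran from -0.46 to 0.47 for 30 mg/kg on day 15, from -0.22 to 0.44 for 30 mg/kg on day 8, from -0.67 to 0.21 for 80 against 30 mg/kg on day 15, from -0.33 to 0.43 for 80 against 30 mg/kg on day 8, from -0.76 to 0.24 for 80 mg/kg on day 15 and from -0.30 to 0.55 for 80 mg/kg on day 8. Serpina7 ran from -0.25 to 0.55 for 30 mg/kg on day 24, from -0.48 to 0.31 for 30 mg/kg on day 4, from -0.16 to 0.49 for 80 against 30 mg/kg on day 4 and from -0.26 to 0.48 for 80 mg/kg on day 4. Synj2 ran from -0.0378 to 0.53 for 30 mg/kg on day 4 and from -0.36 to 0.19 for day 15 less day 4.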
